A study of Xenopus laevis with 9 samples.

Results

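The nuclear envelope genes described here are the probe sets whose gene symbol, without its .L or .S ending, is syne1, syne2, syne3, sun1, sun2, lmna, lmnb1, lmnb2, lmnb3, emd, lbr or banf1. The syne1.L probe set stands at the centre because it was chosen by its measured FICZ and TCDD differences in these same arrays, and the others are its setting. The rule found 11 probe sets of 15491 that were not array controls, each for a different gene copy, which is 11 of 7531 named gene copies on the array and 9 of the 12 symbols. The other 3, syne2, syne3 and sun1, are not analysed here. Xenopus laevis has a doubled genome, and .L and .S mark the long and short copies of a chromosome pair. The reference gene table listed 20 copies of these genes, of which 9 had no probe set in the annotation used, and it held syne1 only as .L.

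Cells of the Xenopus laevis kidney line XLK-WG were grown in flasks close to confluence and exposed for 3 h, and total RNA was measured on 9 Affymetrix arrays. There were 3 arrays after 100 nM FICZ, 3 after 100 nM TCDD and 3 after the DMSO vehicle alone, and the vehicle was 0.25% in all groups. FICZ (6-formylindolo[3,2-b]carbazole) is a photoproduct of tryptophan and TCDD is the most studied dioxin. Both bind the aryl hydrocarbon receptor (AHR), a ligand-activated transcription factor, and the comparisons ask how each ligand changed the transcriptome at an equal dose. The labels call the replicates biological, but all came from 1 cell line, so p-values measure the spread between these samples only.

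The nuclear envelope joins the nucleus to the cytoskeleton through the LINC complex. In it, nesprins, the products of syne genes, cross the outer membrane with a KASH domain and bind SUN proteins of the inner membrane. The SUN proteins in turn meet the lamina, a meshwork of A-type and B-type lamins that also holds emerin, the lamin B receptor and BAF, the product of banf1. The giant isoforms of nesprin-1, encoded by syne1, bind actin through calponin homology domains and are best known from muscle, where they hold nuclei in place.

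Values are log2 signals after quantile normalization. An array has no read depth, so precision depends on how many arrays each group has and on how far they spread. At 3 arrays a group, the standard error of a log2 difference was 0.09 for emd.S and 0.22 for syne1.L. A filter at 4.88, the 25th percentile of the means, left 11618 probe sets to test. Across these tested probe sets the median standard error of a log2 difference was 0.139. DMSO replicate 2 lay away from the other arrays along the main principal component and held 22.6% of all within-group variation. Several results that it moves, though not all, are therefore given with and without it. All arrays of the DMSO group carry a tag, CH, of unstated meaning, and that tag and the vehicle cannot be told apart.

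The line's label was set against marker lists. Since the filter level is the 25th percentile of the means, about 25% of all probe sets lie under it. Of 16 kidney epithelium probe sets, 9 lay under the filter level, among them cdh1.S, the epithelial cadherin, whereas the renal transcription factor pax8.L averaged 5.44 in FICZ, 5.63 in TCDD and 5.39 in DMSO arrays. Of 16 fibroblast probe sets, 6 lay under it, while vim.L, the intermediate filament vimentin, averaged 13.12, 13.12 and 13.14 in FICZ, TCDD and DMSO arrays. The muscle list, relevant for a muscle-rich protein such as nesprin-1, had 24 of 33 probe sets under the filter level, including acta1.S. Its summed linear signal ran from 1827 to 2072 in FICZ, 1816 to 1982 in TCDD and 1928 to 2113 in DMSO arrays. For nerve markers 12 of 16 were under the filter level, with sums of 524.3 to 576.6 in FICZ, 507.9 to 589.9 in TCDD and 458.5 to 575.8 in DMSO arrays. The kidney sums were 1607 to 1851 in FICZ, 1617 to 1876 in TCDD and 1721 to 2011 in DMSO arrays, and the fibroblast sums 15410 to 15950, 15150 to 16800 and 16070 to 16420 in the same order of groups. The fibroblast sums of the FICZ arrays thus all lay below those of the DMSO arrays, while the TCDD sums overlapped both. Linear sums give most weight to bright probe sets such as vim.L, and a fibroblast sum without vim.L is not given. Of all tested single probe sets, 5.96% lay lower without overlap for FICZ against DMSO. For FICZ minus DMSO, 0 of the 7 tested fibroblast genes lay above 0, against 49.5% of all tested probe sets, with a median of -0.12. For TCDD minus DMSO it was 2 of 7, against 50.5% of all tested, with a median of -0.18. Without DMSO replicate 2 the counts were 1 of 7 for FICZ minus DMSO and 0 of 7 for TCDD minus DMSO. FICZ minus TCDD had 3 of 7 above 0 and a median of -0.0049. In these 4 lists limma called 0 probe sets in any comparison, and 0 of their genes had an unadjusted p under 0.05. The kidney, fibroblast, muscle and nerve lists had 5, 7, 8 and 4 tested genes. Of all tested probe sets, 0.603%, 0.0258% and 0.207% were called for FICZ against DMSO, TCDD against DMSO and FICZ against TCDD. An unadjusted p under 0.05 occurred in 7.39%, 3.43% and 3.08%. In the kidney list aqp3.L passed the filter only through its FICZ arrays. The endothelium and blood list, with 4 of 11 under the filter level, including tek.S and ptprc.L, had sums that were higher with FICZ and did not overlap, at 989 to 1057 in FICZ, 841.8 to 896.1 in TCDD and 859.4 to 884.5 in DMSO arrays. Within that list pecam1.L, an endothelial adhesion molecule, was 1.35 higher in FICZ than in DMSO (limma adjusted p = 0.0001). The differences of its 6 tested genes ran from -0.38 to 1.35 for FICZ minus DMSO and from -0.43 to 1.03 for FICZ minus TCDD. In each of these comparisons limma called 1 of the 6, and 2 had an unadjusted p under 0.05. For TCDD against DMSO these counts were 0 and 1. Without pecam1.L the sums were 745.6 to 781 in FICZ, 707.8 to 779.6 in TCDD and 756.2 to 792.7 in DMSO arrays. The part of either list in the syne1.L result was not tested. In RNA from whole cultures, fewer cells of a type and less RNA per cell cannot be told apart.

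The syne1.L signal was highest with FICZ, far lower with TCDD and lowest with vehicle. It was 7.67, 7.97 and 7.66 in the FICZ arrays. It was 5.74, 5.34 and 5.55 in the TCDD arrays. It was 4.72, 5.54 and 4.65 in the DMSO arrays. Every FICZ array lay above every other array, whereas DMSO replicate 2 lay within the TCDD arrays and the remaining DMSO arrays lay below them. The smallest gap between a FICZ array and another was 1.92 to TCDD and 2.12 to DMSO. The within-group SD was 0.323.

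As means, syne1.L was 7.77 ± 0.18 in FICZ, 5.54 ± 0.20 in TCDD and 4.97 ± 0.49 in DMSO arrays (SD, n = 3 each). FICZ minus DMSO was 2.80 on the log2 scale, with a 95% interval of 2.33 to 3.27, a 6.96-fold difference in signal. FICZ minus TCDD was 2.23, with an interval of 1.75 to 2.70, a 4.68-fold difference. These are descriptions without a test, because the gene was picked for this pattern. In the order of the 3 groups, the neighbours TCDD and DMSO overlapped. TCDD minus DMSO was 0.57, with an interval of 0.10 to 1.04, or 1.49-fold. This interval, too, is a description without a test and is not read as a TCDD effect.

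The overlap rested on 1 pair of arrays, DMSO replicate 2 at 5.54 and TCDD replicate 2 at 5.34. The other TCDD arrays, at 5.74 and 5.55, lay above all DMSO arrays. Without TCDD replicate 2 the TCDD minus DMSO difference was 0.68. DMSO replicate 2 lay 0.85 above the mean of the other DMSO arrays in syne1.L, and without it the lowest TCDD array was 0.61 above the highest DMSO array. Left out, it gave a TCDD minus DMSO difference of 0.85 and a FICZ minus DMSO difference of 3.06. Both remaining DMSO arrays lay under the filter level, so the vehicle level of syne1.L is read from the dim end of the array and detection calls were not used. The mean over the 6 TCDD and DMSO arrays was 5.26, above the filter level, so the probe set did not enter through its FICZ arrays alone. Before normalization the deposited values were 7.712, 7.902 and 7.681 in FICZ, 5.853, 5.313 and 5.528 in TCDD, and 4.901, 5.496 and 4.74 in DMSO arrays.

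Among all 11618 tested probe sets, syne1.L held rank 3 from the highest for FICZ minus DMSO, rank 2 for FICZ minus TCDD and rank 36 for TCDD minus DMSO. Among the 7408 tested probe sets with a gene name its rank was 2 for FICZ minus DMSO, 1 for FICZ minus TCDD and 24 for TCDD minus DMSO. Because syne1.L was chosen by its FICZ and TCDD differences in these arrays, high ranks are what that choice selects. They carry no weight of their own.

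**Figure D1:**
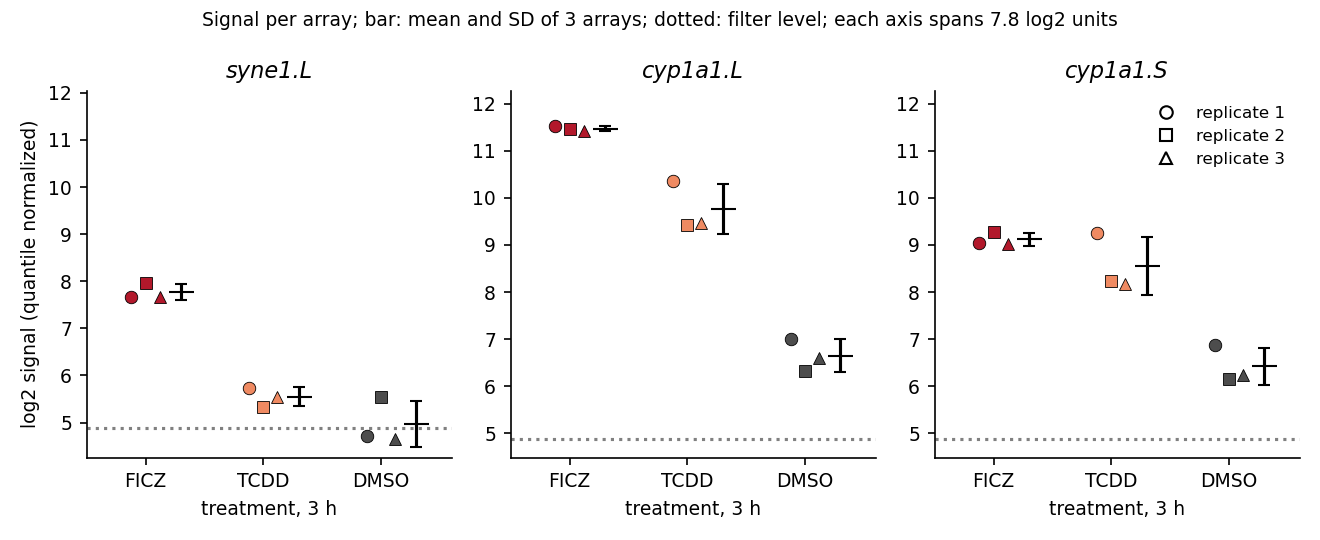
Log2 signal of syne1.L, cyp1a1.L and cyp1a1.S in each array by treatment, with points for arrays and bars for the mean and SD of 3 arrays. The FICZ arrays of syne1.L lie between 7.66 and 7.97, and DMSO replicate 2, at 5.54, lies among the TCDD arrays. Levels are not comparable between the panels.

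The cyp1a1 homeologs, classic AHR targets whose enzyme oxidizes aromatic compounds, serve as a measure of the response to each ligand. The cyp1a1.L signal was 11.52, 11.47 and 11.41 in FICZ, 10.37, 9.43 and 9.46 in TCDD and 7.01, 6.32 and 6.60 in DMSO arrays. All TCDD arrays of cyp1a1.L thus lay above all DMSO arrays, unlike those of syne1.L. The cyp1a1.L difference was 4.82 for FICZ minus DMSO (limma adjusted p = 3.2e-08) and 3.11 for TCDD minus DMSO (limma adjusted p = 1.1e-05). Its homeolog cyp1a1.S rose by 2.70 with FICZ (limma adjusted p = 5.3e-05) and by 2.13 with TCDD (limma adjusted p = 0.0026). FICZ minus TCDD was 1.71 for cyp1a1.L, with all FICZ arrays above all TCDD arrays (limma adjusted p = 0.0025), and 0.57 for cyp1a1.S (limma adjusted p = 0.9999). Whether the ligands' effects on syne1.L and cyp1a1 differ in proportion was not tested. In DMSO replicate 2 both homeologs lay below the other DMSO arrays, by 0.48 and 0.41 on the log2 scale, whereas syne1.L lay above them.

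The other 10 nuclear envelope probe sets showed no such pattern. Of these, 8 passed the filter, and limma called 0 of the 8 in each comparison at an adjusted p of 0.05. Over all tested probe sets the share called was 0.603% for FICZ against DMSO, 0.0258% for TCDD against DMSO and 0.207% for FICZ against TCDD. At an unadjusted p under 0.05 there was 1 of 8 for FICZ against DMSO, sun2.L, against 7.39% of all tested. For TCDD against DMSO there were 0, against 3.43% of all tested. For FICZ against TCDD there were also 0, against 3.08%. Differences above 0 numbered 5 of 8 for FICZ minus DMSO, 3 of 8 for TCDD minus DMSO and 4 of 8 for FICZ minus TCDD, against 49.5%, 50.5% and 48.5% of all tested probe sets. The median difference of the 8 was 0.02 for FICZ minus DMSO, -0.04 for TCDD minus DMSO and 0.00 for FICZ minus TCDD. The median over all tested probe sets was -0.00, 0.00 and -0.00 in the same order of comparisons. The 24 intervals of these 8 probe sets in the 3 comparisons ran from -0.72 to 0.77, so none reached 1 in either direction, and 23 of them held 0.

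**Figure D2:**
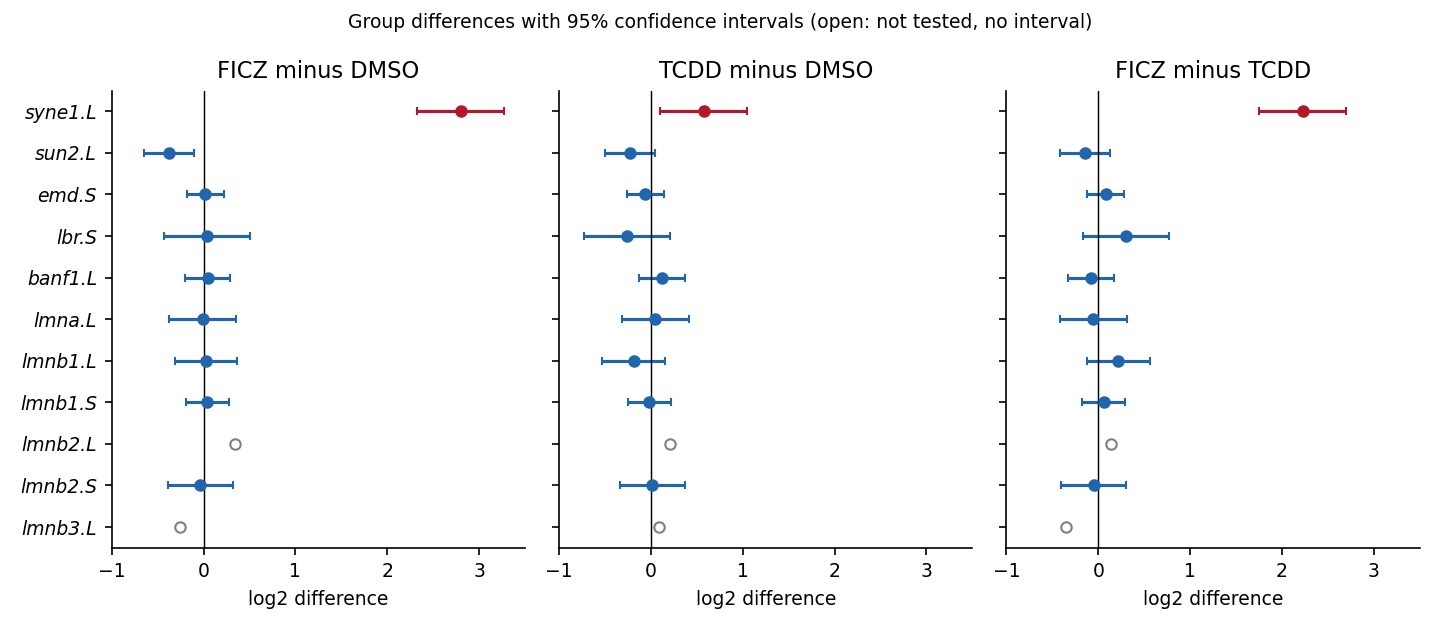
Log2 difference with its 95% interval for each nuclear envelope probe set in the 3 comparisons. The syne1.L intervals for FICZ minus DMSO (2.33 to 3.27) and FICZ minus TCDD (1.75 to 2.70) lie apart from those of the 8 other tested probe sets, which stay between -0.72 and 0.77. Since syne1.L was chosen for its large differences, this gap is what the choice selects.

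SUN proteins anchor nesprins, and sun2.L was the probe set whose product is the direct partner of nesprin-1 at the envelope. Its signal was 8.09, 8.16 and 8.11 in FICZ, 8.26, 8.22 and 8.32 in TCDD and 8.32, 8.79 and 8.37 in DMSO arrays. All FICZ arrays lay below all TCDD and all DMSO arrays, and the TCDD arrays lay below the DMSO arrays by a margin that the rounded values barely show. In the deposited values, before quantile normalization, TCDD and DMSO overlapped, at 8.270, 8.238 and 8.328 in TCDD against 8.309, 8.888 and 8.267 in DMSO arrays. Such lower groups without overlap occurred in 5.96% of all tested probe sets for FICZ against DMSO, 3.57% for TCDD against DMSO and 5.14% for FICZ against TCDD. The means were 8.12 ± 0.04 in FICZ, 8.27 ± 0.05 in TCDD and 8.50 ± 0.26 in DMSO arrays (SD, n = 3 each). FICZ minus DMSO was -0.37, with an interval of -0.64 to -0.10, and did not pass the test (limma unadjusted p = 0.0104, adjusted p = 0.3873). TCDD minus DMSO was -0.23 (limma adjusted p = 0.9693) and FICZ minus TCDD was -0.14 (limma adjusted p = 0.9999). DMSO replicate 2 lay 0.44 above the other DMSO arrays here too, and without it FICZ minus DMSO was -0.22 and TCDD minus DMSO was -0.08.

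Emerin, encoded by emd, is a LEM-domain protein of the inner membrane that binds lamins and BAF. The emd.S signal was 10.32, 10.34 and 10.22 in FICZ, 10.38, 10.06 and 10.20 in TCDD and 10.20, 10.38 and 10.24 in DMSO arrays. The groups overlapped throughout, and FICZ minus DMSO was 0.02, with an interval of -0.18 to 0.22 (limma adjusted p = 0.9813).

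The lamin B receptor, encoded by lbr, ties heterochromatin to the inner membrane and is also a sterol reductase. Its .S copy was dim, at 5.19, 5.17 and 5.19 in FICZ, 5.22, 4.81 and 4.63 in TCDD and 5.20, 5.32 and 4.91 in DMSO arrays. The TCDD arrays spread widest and overlapped both other groups. FICZ minus DMSO was 0.04, with an interval of -0.43 to 0.51, and FICZ minus TCDD was 0.30, with an interval of -0.17 to 0.77 (limma adjusted p = 0.9811 and 0.9999).

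BAF, the product of banf1, bridges DNA and LEM-domain proteins when the envelope reforms after mitosis. The banf1.L signal was 8.68, 8.47 and 8.60 in FICZ, 8.64, 8.67 and 8.68 in TCDD and 8.76, 8.38 and 8.48 in DMSO arrays. The DMSO arrays spanned the range of the other groups, and the differences were 0.04 for FICZ minus DMSO, 0.12 for TCDD minus DMSO and -0.08 for FICZ minus TCDD.

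Among the lamins, lmna encodes the A-type lamins, lmnb1 and lmnb2 the B-type lamins of most cells, and lmnb3 the lamin known from the oocyte and egg of Xenopus. The lmna.L signal was 6.23, 6.10 and 6.32 in FICZ, 6.07, 6.57 and 6.18 in TCDD and 5.99, 6.31 and 6.37 in DMSO arrays. The lmnb1.L signal was 8.95, 8.81 and 8.76 in FICZ, 8.21, 8.87 and 8.79 in TCDD and 8.60, 8.90 and 8.94 in DMSO arrays. The lmnb1.S arrays ran from 8.14 to 8.31 in FICZ, 8.09 to 8.29 in TCDD and 8.10 to 8.27 in DMSO. The lmnb2.S arrays ran from 6.84 to 7.15 in FICZ, 6.87 to 7.28 in TCDD and 6.80 to 7.38 in DMSO. In all 4 of these lamin probe sets the groups overlapped. FICZ minus DMSO was -0.01 for lmna.L, 0.03 for lmnb1.L, 0.04 for lmnb1.S and -0.03 for lmnb2.S. The lowest of their values for TCDD minus DMSO, -0.19 for lmnb1.L, rested on TCDD replicate 1 and was 0.02 without it.

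Neither lmnb2.L nor lmnb3.L passed the filter, so they were not tested and their values may be background. The lmnb2.L signal was 3.98, 4.14 and 4.26 in FICZ, 3.82, 4.21 and 3.94 in TCDD and 3.56, 4.40 and 3.39 in DMSO arrays. The groups overlapped, with DMSO replicate 2 highest and DMSO replicate 3 lowest of all 9. The lmnb3.L signal was 4.82, 4.09 and 4.90 in FICZ, 4.95, 4.90 and 5.02 in TCDD and 5.06, 4.56 and 4.98 in DMSO arrays.

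**Figure D3:**
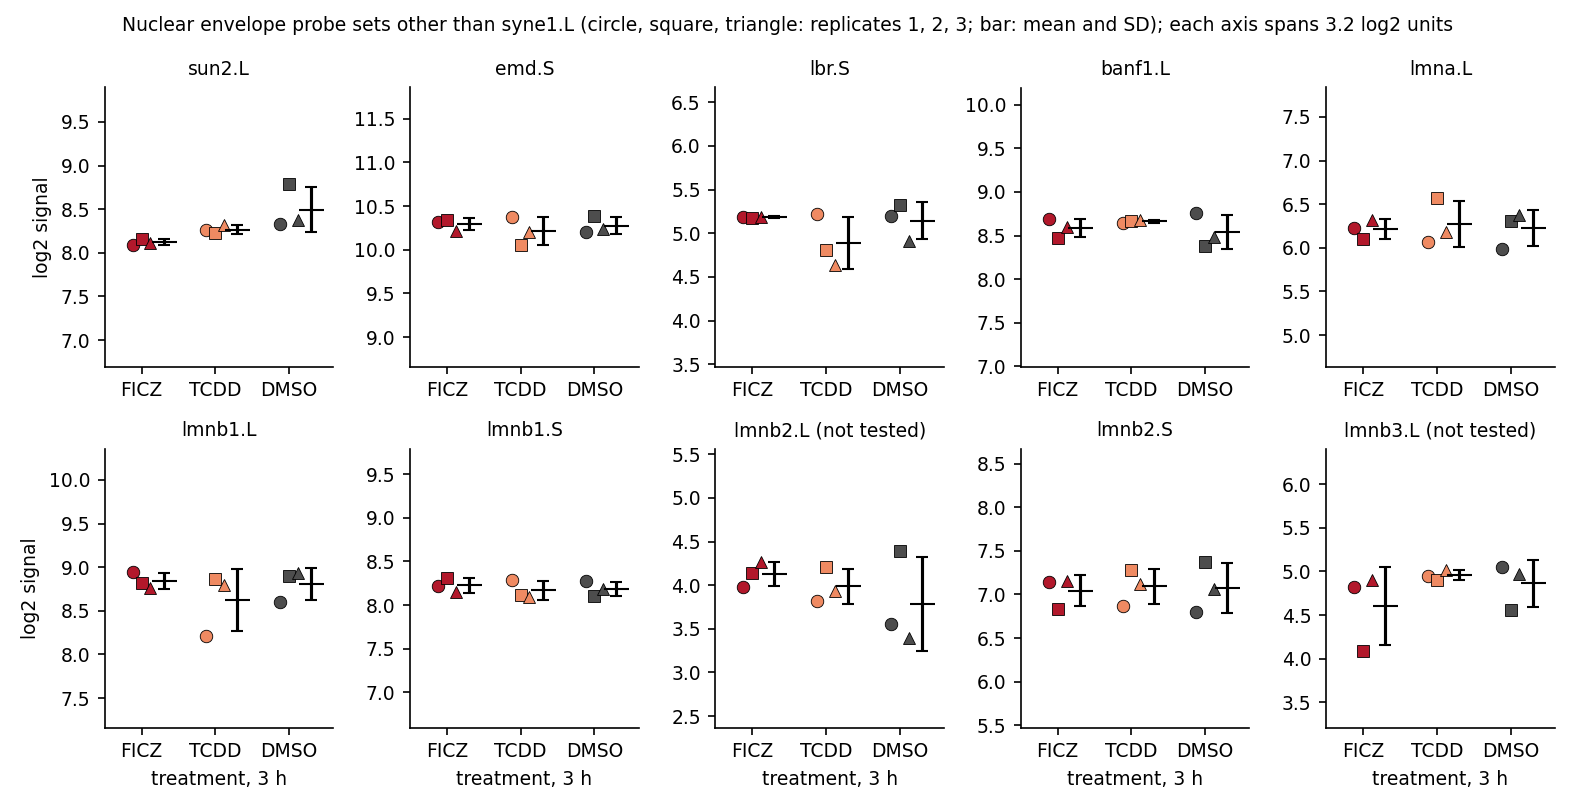
Log2 signal of the 10 nuclear envelope probe sets other than syne1.L in each array by treatment, 1 panel per probe set, with bars for the mean and SD of 3 arrays. The sun2.L FICZ arrays (8.09 to 8.16) lie under its other arrays, and in the other tested probe sets the FICZ arrays overlap the DMSO arrays.

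Wider lists of nuclear envelope genes were counted, each gene copy by its brightest tested probe set, and they gave 1 call in 3 comparisons. Over all tested probe sets the share called was 0.603% for FICZ against DMSO, 0.0258% for TCDD against DMSO and 0.207% for FICZ against TCDD. At these shares, 0 or 1 call is not read as a result about a list. Of 4 tested genes for other KASH, SUN and inner membrane proteins, 0 were called. Among them tmpo.S, a copy of the LEM-domain gene for lamina-associated polypeptide LAP2, had a FICZ minus DMSO difference of 0.57 (limma adjusted p = 0.7025). This probe set passed the filter only through its FICZ arrays, since its mean over the TCDD and DMSO arrays lay under the filter level. The 3 probe sets of tmpo.L gave -0.23, -0.07 and 0.20. Of 26 nucleoporin genes 0 were called, and 5 of 26 had a FICZ minus DMSO difference above 0, against the 49.5% of all tested. Their median was -0.09. Without DMSO replicate 2, 10 of 26 lay above 0 with a median of -0.05. The furthest, nup153.L of the nuclear basket, was -0.41 (limma adjusted p = 0.2804).

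Of 23 nuclear transport genes, such as importins and regulators of Ran, 0 were called, with 3 above 0 and a median of -0.10. Without DMSO replicate 2, 11 of 23 lay above 0 with a median of -0.00. Of 15 genes for sealing and disassembly of the envelope, which include ESCRT-III subunits, 0 were called and 13 lay above 0 with a median of 0.07. Without DMSO replicate 2, 11 of these 15 did. Of 3 lamin processing genes 0 were called, and zmpste24.L, the protease that matures lamin A, was 0.03 for FICZ minus DMSO. Of 22 genes for nesprin partners and motors, such as dynein and kinesin subunits, 0 were called, with 9 above 0 and a median of -0.01.

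For TCDD against DMSO, 0 genes were called in any of these lists. The genes above 0 numbered 2 of 4 for other membrane proteins, 10 of 26 for nucleoporins and 4 of 23 for transport. They numbered 11 of 15 for sealing, 1 of 3 for lamin processing, 4 of 12 for spectrin repeat proteins and 12 of 22 for nesprin partners. Of all tested probe sets, 50.5% lay above 0. Without DMSO replicate 2 the counts were 14 of 23 for transport, 9 of 15 for sealing, 11 of 26 for nucleoporins and 3 of 4 for other membrane proteins. They were then 1 of 3 for lamin processing, 6 of 12 for spectrin repeat proteins and 10 of 22 for nesprin partners. For FICZ against TCDD, 0 genes were called in these lists as well. In that comparison, 8 of 26 nucleoporin, 5 of 23 transport and 6 of 22 nesprin partner genes lay above 0, against 48.5% of all tested, and these counts were the same without DMSO replicate 2. The others were 2 of 4 for other membrane proteins, 2 of 3 for lamin processing, 9 of 15 for sealing and 8 of 12 for spectrin repeat proteins. At an unadjusted p under 0.05 for FICZ against DMSO, limma gave 1 nucleoporin gene, 1 gene for nesprin partners and 2 spectrin repeat genes, with 0 in the other lists, where 7.39% of all tested probe sets had such a p. For TCDD against DMSO it gave 1 gene each for transport, lamin processing and spectrin repeat proteins, against 3.43% of all tested. For FICZ against TCDD it gave 1 spectrin repeat gene, against 3.08% of all tested.

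The 1 call was in the 12 genes for spectrin repeat and linker proteins, the domain family that builds the nesprin rod. It was kalrn.L, encoding kalirin, a large protein with spectrin repeats. Its brighter probe set read 10.08, 10.07 and 10.06 in FICZ, 10.41, 10.27 and 10.46 in TCDD and 10.56, 10.41 and 10.68 in DMSO arrays. The FICZ arrays lay close together and below all others. FICZ minus DMSO was -0.48 (limma adjusted p = 0.0188), and the other kalrn.L probe set gave -0.56 (limma adjusted p = 0.087). The call ended when either of DMSO replicates 1 and 3, or any FICZ array, was left out, with differences of -0.48 to -0.42 and adjusted p values between 0.07 and 0.12, whereas without DMSO replicate 2 the adjusted p was 0.0032. Within this list 5 of 12 genes lay above 0 for FICZ minus DMSO, with a median of -0.04, and 7 of 12 did without DMSO replicate 2. For example, dsp.S, which encodes desmoplakin, was 0.43 (limma adjusted p = 0.6545) and dst.L, encoding the linker dystonin, was -0.40.

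**Figure D4:**
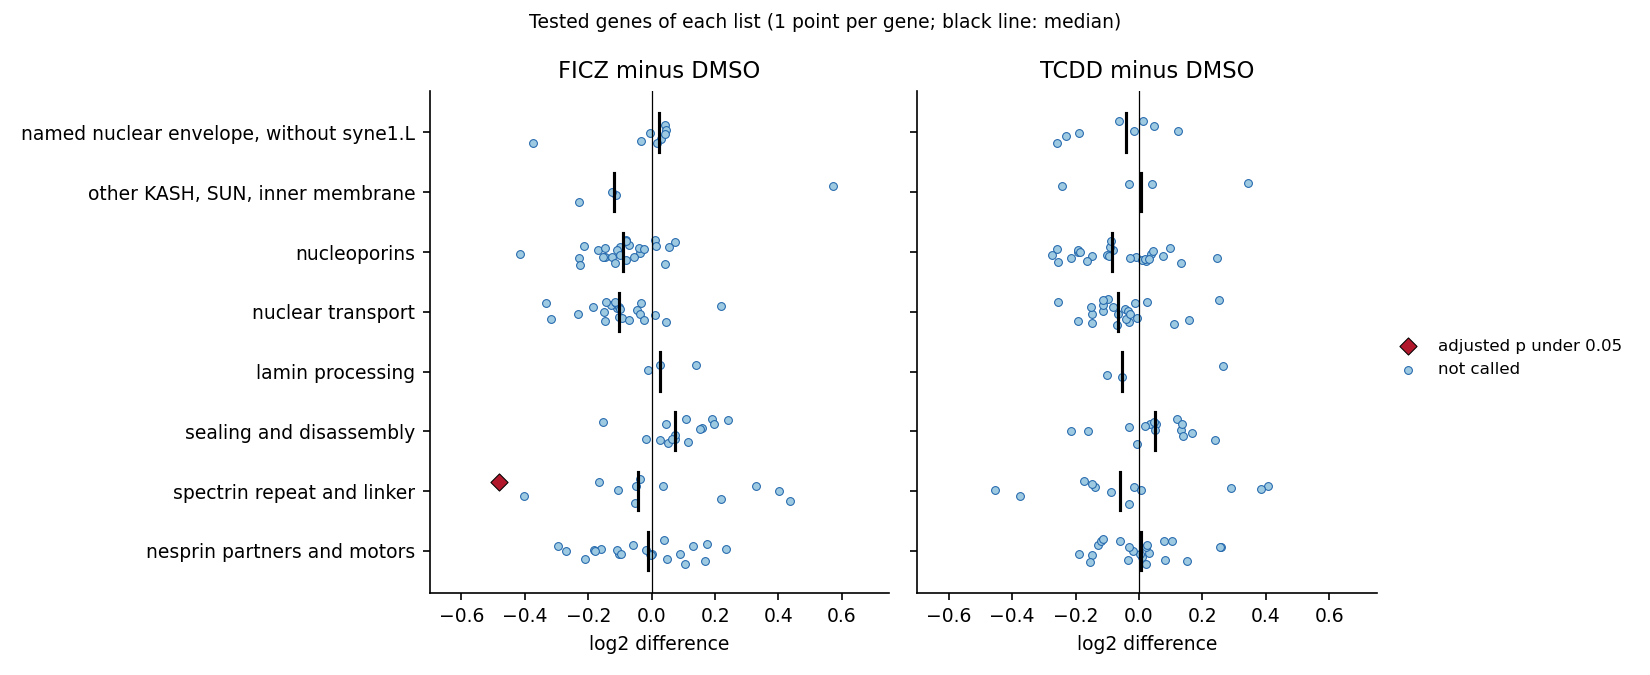
Log2 difference of each tested gene copy in the nuclear envelope lists for FICZ minus DMSO and TCDD minus DMSO, with a black line at each median. The diamond marks kalrn.L at -0.48, the one gene called, and syne1.L is not drawn because it was chosen for its response.

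The named genes whose profile over the 9 arrays was most like that of syne1.L were ranked by Pearson's r among 7407 probe sets, as a description in which all points share the same arrays and the same treatments. The median r was -0.01 and 0.311% of probe sets had an r above 0.9. The highest r, 0.99, was that of thbs3.L, a thrombospondin of the extracellular matrix, which was 0.95 higher in FICZ than in DMSO and 0.17 higher in TCDD than in DMSO. It was followed by alas1.S at 0.98, the first enzyme of heme synthesis, with FICZ minus DMSO at 0.84 and TCDD minus DMSO at 0.06. Next came hip1r.L at 0.98, a linker of clathrin coats to actin, with 0.63 and 0.18 in these comparisons.

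Calpain gene capn1.L and nr3c1.L, the glucocorticoid receptor, each had an r of 0.97, with FICZ minus DMSO at 0.33 and 0.68. The remaining 5 of the 10 were sbk1l.L, pmp22.S, ctdspl.S, pacs2.L and abcb1.L, with r between 0.95 and 0.96. Among them sbk1l.L had the widest FICZ minus DMSO difference, 1.54, with TCDD minus DMSO at 0.26. In all 10, as in syne1.L, FICZ minus TCDD was above 0, at 0.26 for capn1.L and 1.28 for sbk1l.L at the ends, which is what a high r selects. In all 10, DMSO replicate 2 was also the highest DMSO array. On deviations from the group means alone, r was 0.88 for thbs3.L, 0.68 for alas1.S and 0.57 for sbk1l.L. In the other tested nuclear envelope probe sets this r ran from -0.65 for banf1.L to 0.91 for sun2.L, whose r over the 9 arrays was -0.56. A high r within groups was thus not particular to the 10. With Spearman's rho in place of Pearson's r over the 9 arrays, and likewise with the deposited values, 6 of the 10 were among the 10 most alike. Without DMSO replicate 2, 6 of the 10 also kept a place among the 10 most alike, and all 10 stayed in the first 50. The lowest r values were those of aen.L at -0.96, dkc1.L at -0.95, kalrn.L and rdh10.L at -0.93 and hsf2.L at -0.92. The cyp1a1 homeologs stood further off, at r of 0.85 for cyp1a1.L and 0.75 for cyp1a1.S, ranks 46 and 120.

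**Figure D5:**
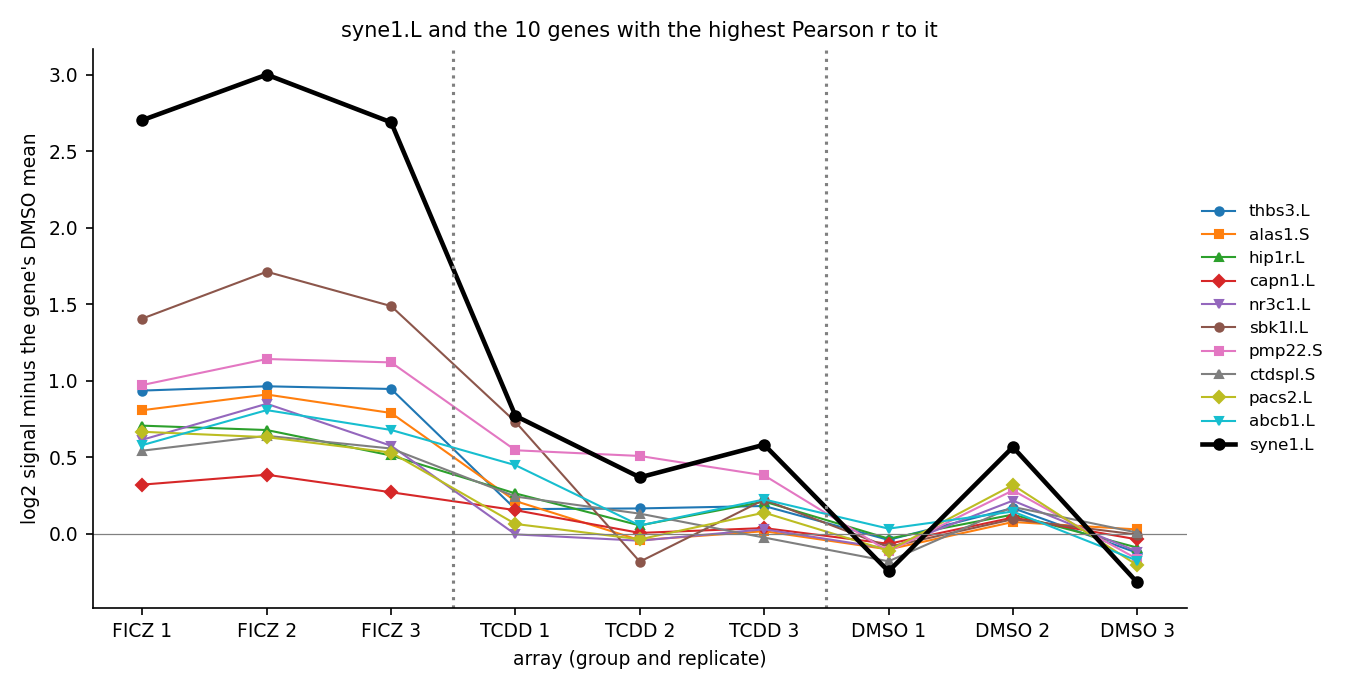
Profiles of syne1.L and the 10 named genes with the highest Pearson r to it over the 9 arrays, as the log2 signal minus the DMSO mean of each gene. FICZ arrays are high in each profile, and DMSO replicate 2 is the highest DMSO array in all 10.

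In the order of the reference gene table, which is used for names and neighbours only, esr1.L, the estrogen receptor alpha gene, stands next to syne1.L. Its 2 probe sets were under the filter level and gave FICZ minus DMSO differences of 0.06 and -0.14. Of 8 coding genes within 4 places on either side, 3 had a named probe set. The others were vip.L, a neuropeptide gene also under the filter level, with a difference of 0.80, and zbtb2.L, a zinc finger gene, whose probe sets gave -0.04 and -0.21 (limma adjusted p = 0.9657 and 0.8374). The 2 neighbouring probe sets that could be tested were both of zbtb2.L, and 0 of them were called for FICZ against DMSO. Of all tested probe sets 0.603% were called, so this count cannot describe the neighbourhood.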

How the data were processed

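RNA of 9 cultures was labelled with biotin and hybridised to Affymetrix Xenopus arrays, per the labels' protocols. The deposited values are log2 signals, 1 per probe set, made by the authors with GCOS, the scanner maker's software, per the submitters' processing notes. For its version, algorithm and scaling, nothing is given in the sources used here. A highest value of 13.627 shows the log base, since a natural log would put it beyond a scanner's range. Samples were grouped by title and treatment label. No other column of per-sample values was used.

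The 120 control probe sets were left out. Deposited array medians differed by up to 0.2, so quantile normalization was applied. The filter removed means below 4.88, the 25th percentile. A mean per group was fitted to all 9 arrays with limma 3.58.1 in R 4.3.3 (lmFit, then eBayes with a trend; 6 residual and 7.82 prior degrees of freedom). Two-sided p-values were adjusted over 11618 probe sets by the Benjamini-Hochberg method, with a threshold of 0.05. The fit was tested on simulated data. With 3 arrays a group, the smallest p of an exact permutation test is 0.1.

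Gene names came from the platform annotation, updated by gene identifier from a RefSeq table of assembly Xenopus_laevis_v10.1; 9304 probe sets had 1 symbol, 195 several and 5992 none. Named genes were all probe sets of the rule, the cyp1a1 homeologs, and the 10 most and 5 least like syne1.L by Pearson's r. Called members of the lists, neighbours of syne1.L, and other list and marker members given as examples were named too. The members and lists were chosen with earlier results of these data known. Levels of different probe sets were not compared. Promoter motifs and sequences were not analysed here.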

Additional observations from a re-analysis of the deposited data

How the results depend on the processing

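The 18 alternatives were other normalizations, filters and variance models, a replicate block and leaving out each array. In all 18, 0 of the nuclear envelope probe sets besides syne1.L that were tested were called in each comparison. The filter at the 50th percentile left lbr.S and lmna.L untested, so that 6 of the 8 were tested there. In all 18, syne1.L kept its direction in all 3 comparisons. Its FICZ minus DMSO difference stayed between 2.66 and 3.06, its FICZ minus TCDD difference between 2.11 and 2.34 and its TCDD minus DMSO difference between 0.42 and 0.85. Since syne1.L was chosen by its differences in these same arrays, its kept direction carries no weight of its own. The ranges show only how far processing and single arrays move its values, and the TCDD minus DMSO difference is still not read as a TCDD effect. The sun2.L FICZ minus DMSO difference ran from -0.46 to -0.22, with limma adjusted p between 0.25 and 0.84. Counts over all probe sets moved more than the members did. For FICZ against DMSO, TCDD against DMSO and FICZ against TCDD, limma called 70, 3 and 24 probe sets. Without the trend in eBayes it called 40, 1 and 8, and with array weights 154, 22 and 355. With only the 2 groups compared, FICZ against TCDD gave 39. Leaving out each array in turn gave 26 to 80, 3 to 7 and 11 to 41 calls. The cause was not tested. The kalrn.L call was also lost without the trend (limma adjusted p = 0.11). Replicate numbers were those of the titles, and the FICZ descriptions number the same arrays 3 to 5, so FICZ numbers may not match those of the other groups. Whether these numbers pair the samples was not settled. Of 9 same-numbered pairs 2 correlated above 0.1, and 4 of 9 arrays matched best with their own number among the arrays of the other groups. Correlations between different numbers are not given here, so neither count can be set against the level without pairing. TCDD and DMSO correlated at 0.476, 0.270 and -0.004 for replicates 1, 2 and 3. The pairs with FICZ cannot decide whether samples are paired, because the FICZ numbers may not match. With the replicate number as a block, limma called 88, 4 and 28 probe sets, and 0, 0 and 0 of the nuclear envelope members. Signal over background is unknown, so dim probe sets, among them the vehicle level of syne1.L, are least certain.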

Other observations

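Of 6 lamin probe sets, 4 placed replicate 1 at the same end in the TCDD and the DMSO group, a pattern noticed after the values were seen. The share of all tested probe sets that do so was not counted, so the pattern cannot be read as particular to lamins. The lmna.L, lmnb1.L and lmnb2.S signals were lowest in replicate 1 of both groups. For lmna.L these were 6.07 in TCDD and 5.99 in DMSO, for lmnb1.L 8.21 and 8.60, and for lmnb2.S 6.87 and 6.80. The lmnb1.S signal was highest in replicate 1 of both groups, at 8.29 in TCDD and 8.27 in DMSO, so the lmnb1 homeologs lay at opposite ends there. The other 2, which were not tested, did not follow this: replicate 1 of lmnb2.L was lowest in TCDD and in the middle in DMSO, and that of lmnb3.L in the middle in TCDD and highest in DMSO. In the FICZ group replicate 1 was the highest of 3 for lmnb1.L and the middle one for lmna.L, lmnb1.S and lmnb2.S. Over all tested probe sets, the deviations of TCDD replicate 1 and DMSO replicate 1 from their group means correlated at r = 0.476, the highest of the 9 same-numbered pairs. Whether these arrays share a culture or a day was not tested.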
